A study of Mus musculus with 6 samples.

Results

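The 10 genes described here encode glucose transporters and isoenzymes of glycolysis. They were listed by symbol, with earlier results of these data known, from the 55401 genes counted in each library: *Slc2a1* and *Slc2a4*, which encode the transporters GLUT1 and GLUT4, the hexokinase genes *Hk1* and *Hk2*, the phosphofructokinase genes *Pfkl*, *Pfkm* and *Pfkp*, the pyruvate kinase gene *Pkm*, and the lactate dehydrogenase genes *Ldha* and *Ldhb*. All 10 had counts in every library and passed the filter on low counts, as did 16807 genes in all.

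RNA-seq was performed on subcutaneous white adipose tissue (scWAT) of 8-week-old male mice kept at room temperature. The control libraries YT-FF 1 to 3 carry the genotype label WT, and according to the methods of the study these mice had floxed alleles of *Yap* and *Taz* and no Cre. The libraries labelled YT-AKO 1 to 3 came from Yapfl/fl/Tazfl/fl;AdipoqCre mice, so by these methods the floxed alleles were shared by both groups and the genotypes differed by Cre. The *Adipoq* promoter drives Cre in mature adipocytes, and the other cells of the fat pad keep both genes. Total RNA of whole tissue was sequenced, with 3 libraries in each group. In such bulk samples, fewer cells of a type and less RNA per cell cannot be told apart.

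Glucose enters the adipocyte through GLUT1, which is largely constitutive, and through GLUT4, which insulin brings to the cell surface. A hexokinase then phosphorylates it, phosphofructokinase commits the sugar to glycolysis, pyruvate kinase forms pyruvate, and lactate dehydrogenase interconverts pyruvate and lactate. In adipocytes this route also supplies glycerol phosphate and acetyl units for the synthesis of fat, and in beige and brown adipocytes glucose uptake rises with thermogenesis.

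Before the genes were compared, the libraries were examined. They held 17740987 to 21838493 counted fragments each. *Yap1* was lower in the libraries labelled YT-AKO (log2 fold change -0.98, adjusted p = 0.0179) and *Wwtr1*, which encodes TAZ, was higher (0.89, adjusted p = 0.0220), so the counts of *Wwtr1*, summed over all its exons, went against the label. By immunoblot, the paper reports less YAP and TAZ protein in scWAT of YT-AKO mice. Every direction given below follows the labels. The groups also differed in how counts depended on gene length. Spearman's rho between the level of a gene relative to its mean over the libraries and its exon length was 0.312 to 0.359 in YT-FF and -0.382 to -0.184 in YT-AKO, lowest in YT-AKO 2. Levels are therefore given on both of the usual scales. CPM, the count scaled to the library total with TMM normalization, sets a gene against the typical gene of its library. TPM also divides by the summed exon length and by the total of all genes, and is the scale on which different genes can be compared. In TPM, *Yap1* was again lower in every YT-AKO library (mean ± SD, 26.3 ± 2.19 in YT-FF and 8.68 ± 2.97 in YT-AKO). *Wwtr1* overlapped on this scale, with 66.5 ± 6.93 in YT-FF and 80.8 ± 28.3 in YT-AKO. A log2 fold change is the difference YT-AKO minus YT-FF fitted to the counts, with its standard error (SE), and a gene was called at an adjusted p under 0.05. Adjusted p-values are those of the edgeR quasi-likelihood test after the Benjamini-Hochberg (BH) procedure over the 16807 genes, unless another tool is named.

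Genes for enzymes of the middle and end of glycolysis were called higher in YT-AKO, whereas no transporter or hexokinase gene passed the test. Of the 10 genes, 6 were called higher (*Pfkl*, *Pfkm*, *Pfkp*, *Pkm*, *Ldha* and *Ldhb*) and 0 lower (edgeR), against 12.6% of all tested genes called higher and 9.01% called lower. At an unadjusted p under 0.05, 7 of the 10 genes were higher and 0 lower in edgeR, and DESeq2 and limma-voom each called 6 higher and 0 lower. Over all genes, 6852 of 16807 had an unadjusted p under 0.05 in edgeR. DESeq2 called 2843 higher and 2223 lower of 18938 genes, and limma-voom 1986 and 1647 of 16807. The median log2 fold change of the 10 genes was 0.84, beside -0.02 over all tested genes. Under the study's stricter rule (log2 fold change beyond 1, adjusted p under 0.01), edgeR called 0 of the 10 genes and 0.125% of all genes. The study used DESeq2, with which *Pfkm* (1.4, adjusted p = 0.000402), *Pkm* (1.15, adjusted p = 1.12e-05), *Ldha* (1.02, adjusted p = 0.00026) and *Ldhb* (1.9, adjusted p = 5.21e-09) passed this rule. The share of all genes that pass it with DESeq2 was not computed. These genes therefore have no background to be read against, and the 0.125% of edgeR is not one. In CPM, all libraries labelled YT-AKO lay above all YT-FF libraries for 6 of the genes and below them for 1, *Slc2a1*. Over all tested genes, 25.7% lay wholly above and 25.8% wholly below. Nearly all calls, over all genes, were lost without YT-FF 1 (0 of 17183 tested genes called) or without YT-FF 2 (0 higher and 2 lower of 17140). In these 2 fits 0 of the 10 genes were called, with 6 at an unadjusted p under 0.05 in each case. Over all genes, 4665 and 4507 had an unadjusted p under 0.05. The fold changes of the 6 genes kept their direction whichever library was left out. Without YT-AKO 2, 8 of the 10 were called higher, beside 2925 of all 17350 genes tested in that fit. With the libraries scaled by their totals alone, which moved the median of all genes to -0.34, *Pkm*, *Ldha* and *Ldhb* were called higher and *Slc2a1* lower, and the calls over all genes went from 2121 higher and 1515 lower to 1137 and 2828.

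**Figure D1:**
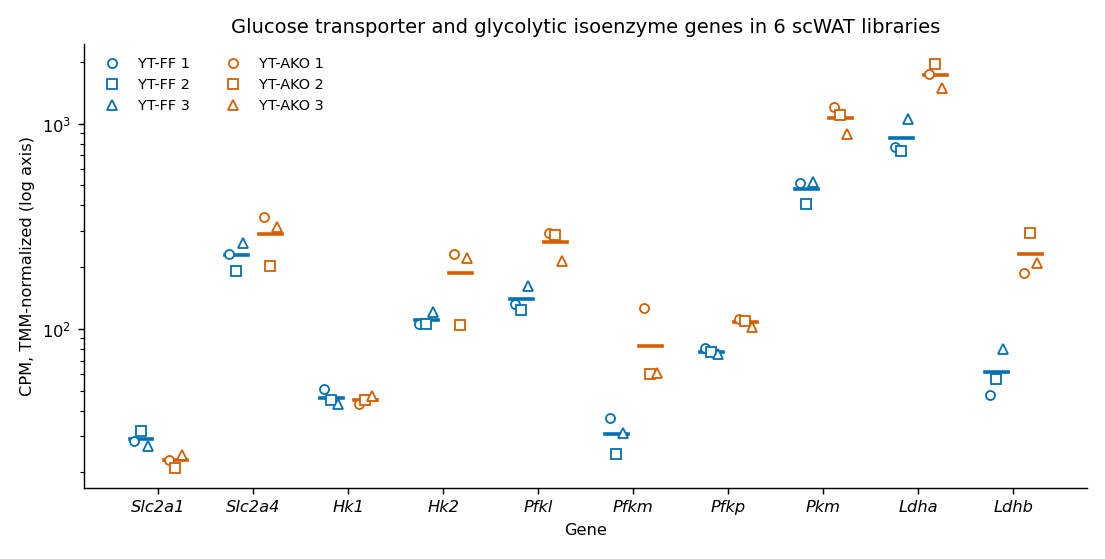
TMM-normalized CPM (log axis) of each of the 10 genes in the 3 YT-FF libraries (blue) and the 3 YT-AKO libraries (orange); each symbol is 1 library and each line a group mean. The groups are apart for the 3 phosphofructokinase genes, *Pkm*, *Ldha* and *Ldhb*, which are higher in YT-AKO, and for *Slc2a1*, which is lower, while *Hk2* and *Slc2a4* overlap because YT-AKO 2 lies among the controls or just below them.

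The transporter genes did not pass the test in either direction. *Slc2a4* (ENSMUSG00000018566, mm10 chromosome 11, 69942539 to 69948188) encodes the insulin-responsive GLUT4 of fat, muscle and heart. Its level in libraries 1, 2 and 3 was 231, 191 and 263 CPM among the YT-FF and 351, 203 and 315 CPM among the YT-AKO mice. YT-AKO 1 and 3 lay above every control and YT-AKO 2 lay among the controls. The log2 fold change was 0.34 (SE 0.242, edgeR, BH-adjusted p = 0.315), with a 95% interval of -0.22 to 0.90. Without YT-AKO 2 it was 0.54 and passed (adjusted p = 0.0314). On the TPM scale the mean of *Slc2a4* was 248 ± 28.8 in YT-FF and 210 ± 94.9 in YT-AKO (mean ± SD, n = 3), the opposite order, with 102 TPM in YT-AKO 2. *Slc2a1* (ENSMUSG00000028645, chromosome 4, 119108711 to 119137983), the gene of the basal transporter GLUT1, had 28.5, 31.7 and 26.9 CPM in YT-FF and 23.1, 21.1 and 24.4 CPM in YT-AKO. All YT-AKO libraries lay below all YT-FF libraries, by a narrow margin. Its log2 fold change was -0.35 (SE 0.154, edgeR, BH-adjusted p = 0.132, 95% interval -0.70 to 0.01). In TPM the gap was wider, with 31.6 ± 4.02 in YT-FF and 16.0 ± 4.71 in YT-AKO (two-sided exact permutation test, p = 0.1, the smallest that 3 libraries against 3 allow). With library totals alone *Slc2a1* passed the test, at a log2 fold change of -0.67 (adjusted p = 0.0484).

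Neither hexokinase gene passed the test, although *Hk2* was high in 2 of the 3 YT-AKO libraries. Hexokinases trap glucose in the cell as its phosphate. *Hk1* (ENSMUSG00000037012, chromosome 10, 62268855 to 62379908), the widely expressed form, had 50.7, 45.0 and 43.0 CPM in YT-FF and 43.1, 45.0 and 47.3 CPM in YT-AKO. The groups overlapped throughout, and the log2 fold change was -0.04 (SE 0.143, edgeR, BH-adjusted p = 0.865), with a 95% interval of -0.37 to 0.30. In TPM, however, all YT-AKO libraries lay below the controls, with 20.6 ± 2.32 in YT-FF and 12.8 ± 3.12 in YT-AKO. A correction for gene length turned its log2 fold change to 0.35, so no direction can be given for this gene, whose exons span 8532 bases. *Hk2* (ENSMUSG00000000628, chromosome 6, 82725025 to 82774454) encodes the insulin-regulated hexokinase of muscle and fat. It had 106, 106 and 121 CPM in YT-FF and 232, 105 and 222 CPM in YT-AKO. YT-AKO 1 and 3 were far above the controls and YT-AKO 2 was just below the lowest of them. The log2 fold change of *Hk2* was 0.74 (SE 0.292, 95% interval 0.07 to 1.42), which did not pass after adjustment (edgeR, BH-adjusted p = 0.0974). Without YT-AKO 2 it was 1.03 (adjusted p = 0.00198), and with the correction for gene length 0.93 (adjusted p = 0.0458). In TPM, *Hk2* had 108 and 101 in YT-AKO 1 and 3 and 30.8 in YT-AKO 2, against 68.6 to 73.2 in the controls.

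All phosphofructokinase genes were called higher. The enzyme is a tetramer of liver (*Pfkl*), muscle (*Pfkm*) and platelet (*Pfkp*) subunits, which differ in their response to allosteric regulators. *Pfkl* (ENSMUSG00000020277, chromosome 10, 77986947 to 78010083) had 132, 124 and 162 CPM in YT-FF and 295, 288 and 215 CPM in YT-AKO. Every YT-AKO library was above every control, with a log2 fold change of 0.93 (SE 0.195, edgeR, BH-adjusted p = 0.0231). *Pfkm* (ENSMUSG00000033065, chromosome 15, 98092589 to 98132451) had 36.8, 24.7 and 31.2 CPM in YT-FF and 126, 60.4 and 61.0 CPM in YT-AKO. YT-AKO 1 stood apart from the other YT-AKO libraries, which were still above every control. The log2 fold change of 1.41 (SE 0.319, edgeR, BH-adjusted p = 0.0262) was the second largest of the 10 genes, after *Ldhb*. *Pfkp* (ENSMUSG00000021196, chromosome 13, 6579768 to 6648777) had 80.3, 76.8 and 75.6 CPM in YT-FF and 112, 109 and 102 CPM in YT-AKO. The libraries of each group lay close together and apart from those of the other group. Its log2 fold change was the smallest of those called, 0.47 (SE 0.137, edgeR, BH-adjusted p = 0.0462). The call of *Pfkp* was lost without any one library other than YT-AKO 2 (adjusted p from 0.0693 to 0.188), with upper-quartile normalization, with library totals alone and without the filter on low counts, and the call of *Pfkm* was lost without YT-FF 3 (adjusted p = 0.0739).

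In TPM, by contrast, the groups overlapped for each of them. *Pfkl* had 79.1 ± 7.34 TPM in YT-FF and 95.4 ± 24.8 in YT-AKO, *Pfkm* 35.1 ± 6.68 and 62.0 ± 38.1, and *Pfkp* 22 ± 1.43 and 19.4 ± 4.66, the last in the opposite order to its CPM. The exons of *Pfkp* sum to 13401 bases, against a median of 3890 over the tested genes, and with the correction for gene length its log2 fold change rose to 1.03 (edgeR, BH-adjusted p = 0.0204). Other genes overlap 10.7% of the exon bases of *Pfkm* and 5.58% of those of *Pfkp*, and fragments in those stretches were not counted.

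Markers of skeletal muscle were examined because *Pfkm* encodes the muscle subunit. The summed level of 11 such markers was 866, 248 and 365 TPM in YT-FF and 5390, 592 and 372 TPM in YT-AKO, so YT-AKO 1, with the highest *Pfkm*, also had the highest sum. Among the controls too, the order of the sums was that of *Pfkm*, highest in YT-FF 1 and lowest in YT-FF 2. Of the markers, 9 passed the filter and 1, *Acta1*, was called higher. *Pfkm* still passed without YT-AKO 1, at a log2 fold change of 0.98 (edgeR, BH-adjusted p = 0.0282). In YT-AKO 3, where *Pfkm* was at 61.0 CPM, *Acta1* made up most of the sum, with 350 TPM against at most 329 TPM in the controls. In TPM, the other 8 that passed the filter were lower there than in every control, among them *Ckm*, muscle creatine kinase, at 1.43 TPM against 14.9 to 58.0 TPM, and *Pvalb*, parvalbumin, at 1.70 TPM against 23.7 to 96.3 TPM. The part of muscle RNA in the levels of *Pfkm*, *Hk2* and *Slc2a4*, which muscle also expresses, was not tested.

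**Figure D2:**
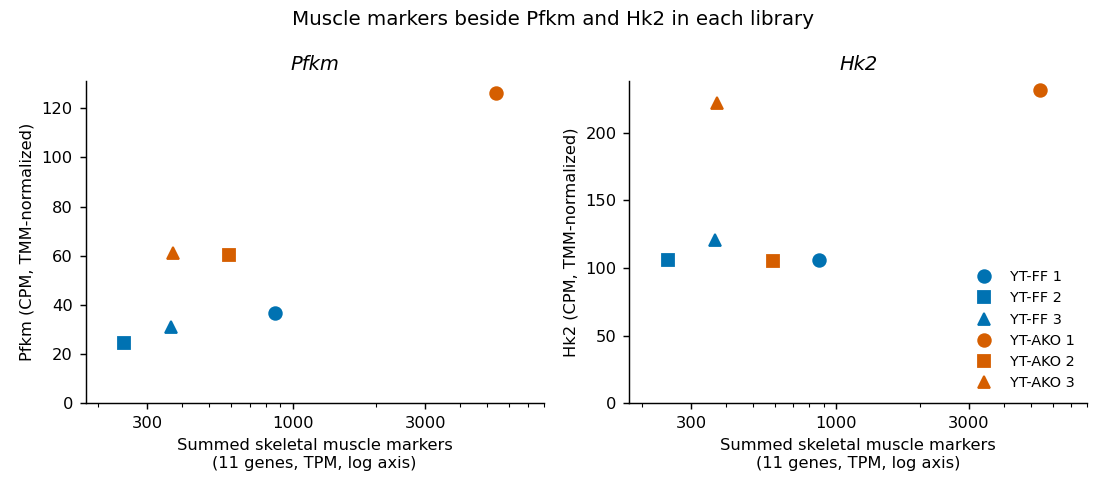
CPM of *Pfkm* (left) and *Hk2* (right) against the summed TPM of 11 skeletal muscle markers (log axis), 1 symbol per library. YT-AKO 1 holds 5390 TPM of muscle markers and the highest *Pfkm*, 126 CPM, while YT-AKO 3, with 372 TPM, has 61.0 CPM of *Pfkm* and 222 CPM of *Hk2*.

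*Pkm* (ENSMUSG00000032294, chromosome 9, 59656368 to 59679375) encodes the M1 and M2 forms of pyruvate kinase, which arise from alternative exons and are summed in these counts. It had 514, 404 and 519 CPM in YT-FF and 1210, 1100 and 886 CPM in YT-AKO. The lowest YT-AKO library was well above the highest control. The log2 fold change was 1.15 (SE 0.208, edgeR, BH-adjusted p = 0.0185), with a 95% interval of 0.67 to 1.64. In TPM it was 363 ± 39.7 in YT-FF and 514 ± 148 in YT-AKO, with YT-AKO 2, at 386 TPM, among the controls. The count of *Pkm* is less certain than most, because other genes overlap 15.3% of its exon bases and 25.8% of its 50-base words occur in 8 other genes.

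Both lactate dehydrogenase genes were called higher, with a larger fold change for *Ldhb* than for *Ldha*. The enzyme is a tetramer of A and B subunits. The A subunit predominates in glycolytic tissues such as fast muscle, and the B subunit in oxidative tissues such as the heart. *Ldha* (ENSMUSG00000063229, chromosome 7, 46841475 to 46855627) had 770, 735 and 1050 CPM in YT-FF and 1750, 1950 and 1490 CPM in YT-AKO. All YT-AKO libraries were above all controls, with a log2 fold change of 1.02 (SE 0.224, edgeR, BH-adjusted p = 0.0249). *Ldhb* (ENSMUSG00000030246, chromosome 6, 142490249 to 142507957) had 47.6, 57.3 and 79.6 CPM in YT-FF and 187, 295 and 210 CPM in YT-AKO. As a ratio, the gap between the highest control and the lowest YT-AKO library was the widest of the 10 genes. Its log2 fold change of 1.91 (SE 0.261, edgeR, BH-adjusted p = 0.0166, 95% interval 1.30 to 2.51) was higher than that of 97.6% of all tested genes.

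*Ldhb* was also the only one of the 10 genes that was higher in every YT-AKO library in TPM, with 117, 144 and 183 TPM in YT-FF and 332, 329 and 363 TPM in YT-AKO. These levels average 148 ± 33.3 and 342 ± 18.7 TPM, a ratio of 2.31 (two-sided exact permutation test, p = 0.1). *Ldha* overlapped in TPM, with 894, 876 and 1140 in YT-FF and 1480, 1030 and 1230 in YT-AKO. *Ldhb* has short exons, 1570 bases in sum against 3310 for *Ldha*, and with the correction for gene length its log2 fold change fell to 1.53 (edgeR, BH-adjusted p = 0.0194), still the largest of the 10. A copy, Gm5514, shares 21.0% of the 50-base words of *Ldhb*, and 328 other genes share 9.26% of those of *Ldha*, none of them alone more than 3.08%.

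The make-up of the lactate dehydrogenases was compared within each library, where no scaling between libraries enters. *Ldhb* gave 11.5%, 14.1% and 13.8% of the summed TPM of both genes in YT-FF and 18.4%, 24.2% and 22.8% in YT-AKO. The share was higher in 3 of 3 YT-AKO libraries than in any control, with means of 13.1% ± 1.41 and 21.8% ± 3.05 (SD, n = 3). The ratio of *Ldhb* to *Ldha* was 0.130, 0.164 and 0.160 in YT-FF and 0.225, 0.320 and 0.296 in YT-AKO, a difference of 0.88 on the log2 scale (two-sided exact permutation test, p = 0.1, and 0.24 after Benjamini-Hochberg adjustment over the 6 ratios compared). Left out in turn, the libraries moved this difference between 0.77 and 1.03, and the correction for gene length brought it to 0.56, with the groups still apart.

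The sequences before the RefSeq starts of *Ldha* and *Ldhb* (build GRCm38.p6) are shown because the ratio of this pair separated the groups, and that of *Pfkm* because its fold change was the largest after that of *Ldhb*. *Ldha* has 2 starts in the table and *Pfkm* 4, and the first is shown. Capitals mark the core of the hypoxia response element, ACGTG, which also stands inside the E-box CACGTG, on either strand. Each is read 5′ to 3′ along the strand of its gene over the 250 bases before the start, on chr7:46845554-46845803 (plus strand) for *Ldha*, chr6:142507958-142508207 (minus strand) for *Ldhb* and chr15:98092339-98092588 (plus strand) for *Pfkm*.
Ldha: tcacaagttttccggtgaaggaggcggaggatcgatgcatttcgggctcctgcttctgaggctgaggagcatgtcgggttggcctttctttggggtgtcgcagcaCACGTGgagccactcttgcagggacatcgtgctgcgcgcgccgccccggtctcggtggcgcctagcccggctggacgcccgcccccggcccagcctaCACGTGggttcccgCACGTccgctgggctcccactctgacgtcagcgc
Ldhb: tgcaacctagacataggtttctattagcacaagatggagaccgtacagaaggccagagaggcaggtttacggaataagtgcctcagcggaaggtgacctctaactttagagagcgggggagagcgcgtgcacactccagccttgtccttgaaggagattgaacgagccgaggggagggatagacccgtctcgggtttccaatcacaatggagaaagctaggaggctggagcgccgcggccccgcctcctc
Pfkm: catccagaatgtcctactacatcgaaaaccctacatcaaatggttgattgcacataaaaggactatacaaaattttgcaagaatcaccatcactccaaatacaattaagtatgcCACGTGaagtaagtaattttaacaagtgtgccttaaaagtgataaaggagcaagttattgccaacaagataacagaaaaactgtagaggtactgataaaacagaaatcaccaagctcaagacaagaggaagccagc
The *Ldha* window held 5 matches of ACGTG, 4 of them as both strands of 2 E-boxes, at 145 and 48 bases before the start, and the other 34 bases before it. The *Ldhb* window held 0 matches of either. The *Pfkm* window held 1 E-box, 136 bases before the start. Of the 10 genes 9 had a promoter in the table, all but *Slc2a4*, with 15 starts in all. ACGTG stood before 6 of the 15 starts, CACGTG before 2 and the TEAD site GGAATG, searched because TEAD proteins bind YAP and TAZ, before 0. Of all 32851 mouse promoters of the same length, 16.6%, 6.02% and 12.6% held these motifs, counted on both strands. The matches describe the letters only.

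Of the other 5 ratios between isoenzymes, 1 separated the groups. The ratio of *Pfkm* to *Pfkp* was 1.84, 1.29 and 1.65 in YT-FF and 4.50, 2.23 and 2.41 in YT-AKO, with no overlap (difference 0.87 on the log2 scale, two-sided exact permutation test, p = 0.1, adjusted 0.24). The difference fell to 0.29 with the correction for gene length and the groups then overlapped (p = 0.7 in the same exact test). *Pfkp* gave 16.2% ± 1.82 of the phosphofructokinase TPM in YT-FF and 11.3% ± 1.94 in YT-AKO, and *Pfkl* gave the largest share in every library, from 49.0% to 62.2%. The ratio of *Slc2a4* to *Slc2a1* was 8.17, 6.06 and 9.85 in YT-FF and 15.3, 9.70 and 13 in YT-AKO. YT-AKO 2 lay just below the highest control, and the log2 difference of 0.66 had an exact p = 0.2. The ratio of *Hk2* to *Hk1* was 3.0, 3.36 and 4.02 in YT-FF and 7.68, 3.33 and 6.71 in YT-AKO, again with YT-AKO 2 among the controls (log2 difference 0.69, exact p = 0.3). *Pfkm* to *Pfkl* (0.42) and *Pfkp* to *Pfkl* (-0.46) overlapped as well, each with an exact p = 0.2.

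**Figure D3:**
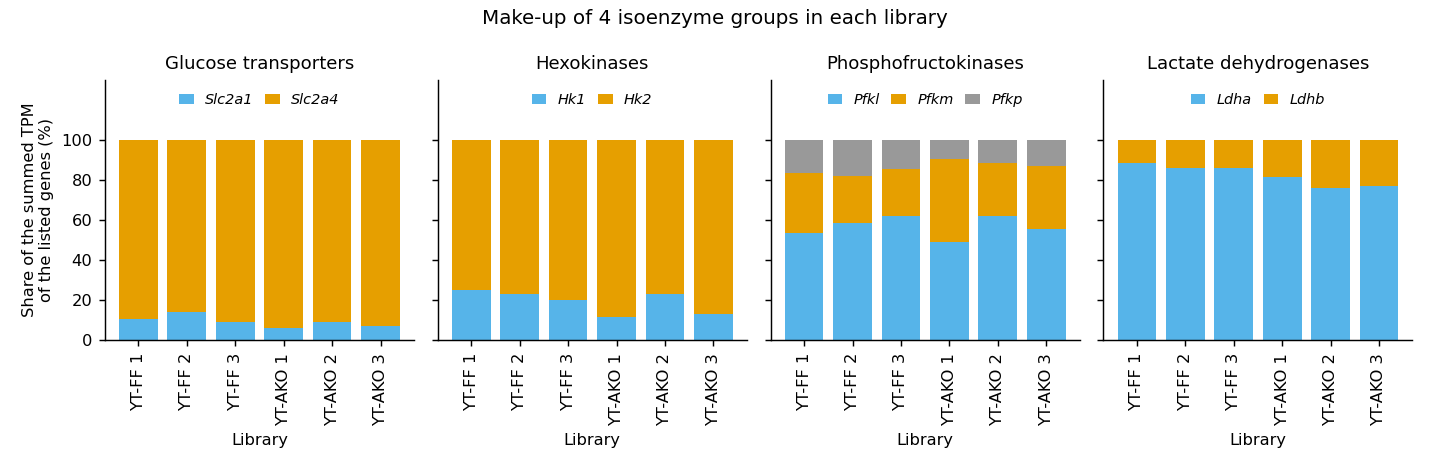
Share of each isoenzyme gene in the summed TPM of its family (%), 1 bar per library, with the families named above the panels. *Ldhb* takes 11.5% to 14.1% of the lactate dehydrogenase sum in YT-FF and 18.4% to 24.2% in YT-AKO, and YT-AKO 2 keeps the hexokinase shares of the controls.

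Summed over a family, only the lactate dehydrogenases separated the groups, with 1010, 1020 and 1330 TPM in YT-FF and 1810, 1360 and 1590 TPM in YT-AKO. The exact p was 0.1, and 0.4 after Benjamini-Hochberg adjustment over the 4 families. The hexokinase sum was nearly the same in each control, 90.9 to 91.4 TPM, and 122, 40 and 116 TPM in YT-AKO (exact p = 1). The phosphofructokinases summed to 136 ± 9.30 and 177 ± 67.0 TPM (mean ± SD, n = 3, exact p = 0.5) and the transporters to 280 ± 24.9 and 226 ± 99.5 TPM (exact p = 0.6). YT-AKO 2 gave the lowest sum of its group in all 4 families. With TMM-normalized counts per kilobase in place of TPM, the log2 differences went from -0.43 to 0.25 for the transporters and from -0.14 to 0.54 for the hexokinases, so neither sum has a direction that holds on both scales. Those of the phosphofructokinases went from 0.31 to 0.99, where the groups were apart (exact p = 0.1), and those of the lactate dehydrogenases from 0.51 to 1.19.

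By TPM, the level of transcript ranked in the order *Ldha*, *Pkm*, *Slc2a4*, *Ldhb*, *Pfkl*, *Hk2*, *Pfkm*, *Slc2a1*, *Pfkp* and *Hk1* in YT-FF, from 971 ± 149 down to 20.6 ± 2.32 TPM. Neighbours were apart in all libraries except *Pfkm* and *Slc2a1*, and *Pfkp* and *Hk1*, whose ranges overlapped. In YT-AKO *Ldhb* stood above *Slc2a4* and *Pfkp* above *Slc2a1*. *Ldha*, at 1240 ± 223 TPM, *Pkm* and *Ldhb* were still apart from each other and from the rest. *Slc2a4*, *Pfkl* and *Hk2* each overlapped with the next gene in rank, as did *Pfkp* and *Slc2a1*. *Pfkm* was apart from *Pfkp*, with at least 31.7 TPM against at most 23.3 TPM.

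**Figure D4:**
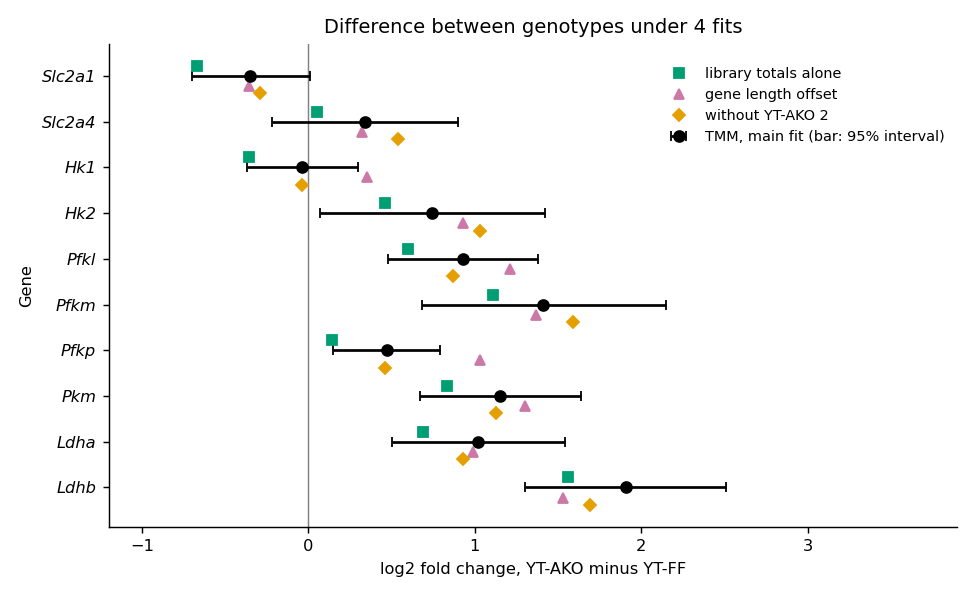
Log2 fold change (YT-AKO minus YT-FF) of each gene in the main fit with its 95% interval (black), and the estimates with library totals alone (green), with a correction for gene length (pink) and without YT-AKO 2 (yellow). *Ldhb* has the highest estimate in every fit, from 1.53 to 1.91, while *Hk1* lies at -0.36 with library totals alone and at 0.35 with the correction for gene length.

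The other genes of glucose metabolism were taken from 7 lists. Of 120 genes listed, 106 passed the filter, 27 were called higher and 4 lower (16 and 11 with library totals alone), and their median log2 fold change was 0.25. Among the 23 other glycolytic enzymes, 18 were tested, 7 were called higher and 0 lower, with a median of 0.78. At an unadjusted p under 0.05 there were 8 higher and 2 lower in edgeR, beside 6852 of 16807 over all genes, and DESeq2 called 8 higher and 0 lower. *Aldoa*, the main aldolase, and *Eno1*, the main enolase, rose by 1.5 and 1.37 on the log2 scale (adjusted p = 0.0176 and 0.0171), and were above the controls in every YT-AKO library in both CPM and TPM. *Gpi1*, *Tpi1* and *Pgk1* were called higher too. So was *Ldhd*, a D-lactate dehydrogenase that the list counts although it is not an enzyme of glycolysis. *Gapdh* did not pass (log2 fold change 0.21, adjusted p = 0.537), but 223 other genes share 25.1% of its 50-base words, so that its count is uncertain, as are those of *Eno1*, with 26.0%, and *Pgk1*, with 53.9%. Another gene overlaps 42.2% of the exon bases of *Ldhd*.

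The next lists hold transporters, regulators and genes of vesicle traffic, read against the 12.6% of all tested genes called higher and 9.01% called lower. Of 13 other hexose transporters 8 were tested and 0 were called by edgeR, with 3 higher and 0 lower at an unadjusted p under 0.05 and 1 called higher by DESeq2. *Slc2a8*, the most abundant of them, had a log2 fold change of 0.56 (adjusted p = 0.0540) and *Slc2a5*, the fructose transporter GLUT5, of 0.90 (adjusted p = 0.0896). Of 15 tested regulators, 1 was called, *Pfkfb2*, which makes the activator of phosphofructokinase fructose 2,6-bisphosphate, and it fell by 1.09 on the log2 scale (adjusted p = 0.0187). Other genes overlap 19.5% of its exon bases. At an unadjusted p under 0.05, 0 of the regulators were higher and 3 lower in edgeR, and DESeq2 called 0 higher and 3 lower. With the correction for gene length, 0 were higher and 1 lower at an unadjusted p under 0.05. The genes of the hypoxia factor HIF1A and of ChREBP (*Mlxipl*), which act on glycolytic genes, had log2 fold changes of -0.20 and -0.03 (adjusted p = 0.335 and 0.932). *Arnt* and *Mlxip*, of the same list, had log2 fold changes of -0.74 and -0.81 (adjusted p = 0.0818 and 0.0926). In CPM, YT-AKO lay wholly below the controls for both, as it did for 25.8% of all tested genes. Of 15 genes of GLUT4 vesicle traffic, *Stx4a*, a syntaxin of the cell surface, was called higher (1.07, adjusted p = 0.0445), and *Lnpep*, the aminopeptidase that travels with GLUT4, and *Tbc1d1*, a Rab GTPase activating protein that restrains the vesicles, lower (-0.79 and -0.63, adjusted p = 0.0270 and 0.0349). With the correction for gene length, 0 of the 15 were called, with 3 higher and 0 lower at an unadjusted p under 0.05.

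The last lists hold enzymes that use intermediates or products of glycolysis. Of 22 genes for the fates of pyruvate and lactate, 8 were higher and 0 lower (1 at an unadjusted p under 0.05, and 0 with DESeq2), led by *Mpc2*, a subunit of the mitochondrial pyruvate carrier, which rose by 2.16 on the log2 scale (adjusted p = 0.0171). *Gpd1*, which makes glycerol 3-phosphate, rose by 1.40 (adjusted p = 0.0182) and *Pdhb*, of pyruvate dehydrogenase, by 1.29 (adjusted p = 0.0171). Of the pentose phosphate pathway 3 of 8 tested genes were higher and 0 lower, *Pgls* by 1.62, *Taldo1* by 1.53 and *Pgd* by 0.97 (adjusted p = 0.0280, 0.0185 and 0.0259, with 20.6% of the exon bases of *Pgls* overlapped by another gene), and 0 were lower at an unadjusted p under 0.05 or with DESeq2. Of 20 genes of glycogen metabolism 8 were higher, among them *Gys2*, the liver glycogen synthase, by 2.31, *Ppp1r3c*, a subunit that targets phosphatase to glycogen, by 1.69, and *Ugp2*, which forms UDP-glucose, by 1.34 (adjusted p = 0.0146, 0.0276 and 0.0146). *Pygb*, the brain glycogen phosphorylase, was the 1 gene called lower, at -0.66 (adjusted p = 0.0393). Without YT-FF 1 or without YT-FF 2 none of the listed genes was called, beside 0 and 2 called over all genes. At an unadjusted p under 0.05, 32 and 28 of the listed genes were higher and 5 and 7 lower, beside 4665 and 4507 of all genes.

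**Figure D5:**
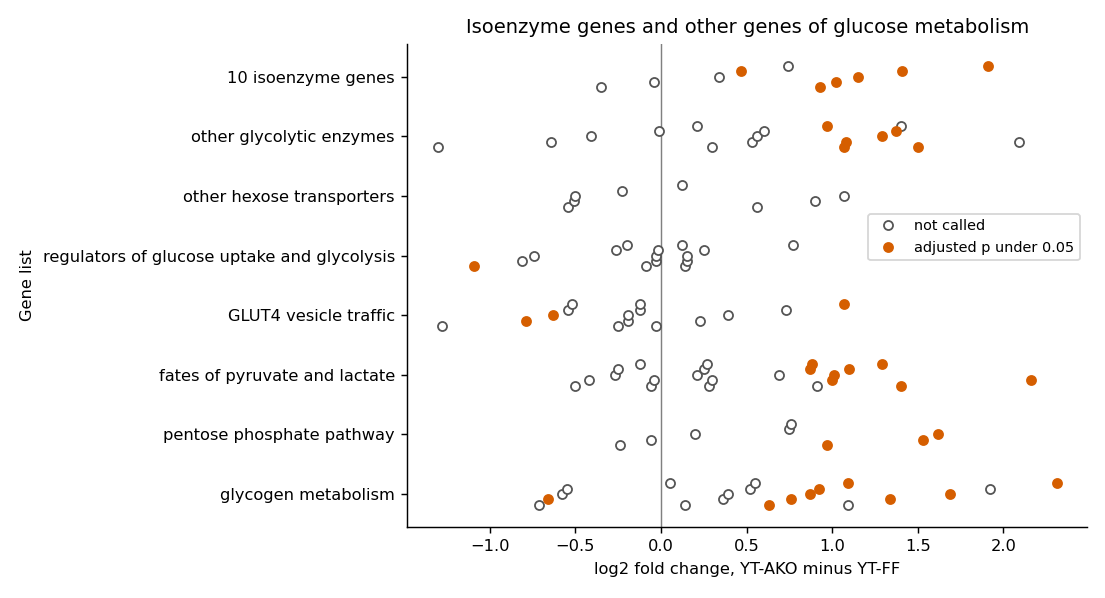
Log2 fold change (YT-AKO minus YT-FF) of the 10 isoenzyme genes and of the tested genes of the 7 other lists, with 1 glycolytic gene not shown; filled points passed an adjusted p under 0.05. The isoenzyme genes and other glycolytic enzymes lie mostly to the right, with *Aldoa* at 1.5, while the transporters, regulators and vesicle genes lie around 0.

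The genes whose level ran most nearly parallel over the 6 libraries, by Pearson's r of log2 CPM, are given as a description. For *Ldhb* these were *Fh1*, the fumarase of the citric acid cycle (0.9996), and *Krt79* (0.9995). For *Slc2a1* they were *Arhgap32* and *Sec24b*, for *Slc2a4* Gm11993 and *Mapkapk5*, for *Pfkl* *Slc25a34* and *Isg20*, and for *Pfkm* *Stip1* and *Slc25a1*. *Pfkp* was most like Gm32219 and *Plpp7*, *Pkm* like Gm14269 and *Gstp2*, and *Ldha* like *Mrfap1* and *Stx6*. Each is the highest of 16807 values over 6 libraries and carries no p.

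Markers of several cell types differed between the groups as well. The summed TPM of 6 markers of thermogenic adipocytes was 710 to 967 in YT-FF and 5680 to 10200 in YT-AKO, with 5 of 6 called higher, and that of 6 general adipocyte markers overlapped, at 13100 to 18100 and 15100 to 17100. Summed markers of B cells (1360 to 1660 TPM against 692 to 773), Schwann cells (279 to 393 against 163 to 193) and proliferating cells (32.7 to 57.8 against 15.9 to 20.6) were lower in every YT-AKO library, with 3 of 6, 0 of 6 and 1 of 4 markers called lower. Those of erythrocytes, endothelium, fibroblasts, macrophages, T cells, smooth muscle and epithelium overlapped. *Krt5* of the epithelial markers was at 0 in all libraries. Their part in the levels of the 10 genes was not tested.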

How the data were processed

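The gene counts of 6 scWAT libraries were used, 3 for each genotype in the labels. The authors aligned paired-end reads to mm10 (GRCm38) with HISAT2 and counted fragments on exons of GENCODE vM25 with featureCounts 2.0.1. They deposited raw, unstranded counts for each gene, from which multi-mapping fragments and those shared between genes are absent. Symbols were matched for 55141 of 55401 gene identifiers. Nothing in the labels says that replicates are more than separate samples, so p-values measure the spread between these libraries.

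Counts were tested in R 4.3.3 with edgeR 4.0.16 (TMM normalization, filterByExpr with a minimum count of 10 and a minimum total of 15, quasi-likelihood test) and Benjamini-Hochberg adjustment over 16807 genes, and the test was checked on simulated data. The biological coefficient of variation was 0.288. TPM used summed exon lengths. Ratios and sums were compared by two-sided exact permutation tests. Total counts of 17740987 to 21838493 put 3 counts at 0.128 to 0.177 CPM, far below every gene shown for the 10 (counting error only). The alternatives were DESeq2 1.42.0, limma-voom (limma 3.58.1), other normalizations and filters, a robust fit, a replicate block, an offset for gene length (spline, 6 degrees of freedom) and leaving out each library. Levels centred within each group gave no sign of pairing by replicate number (correlations of same-numbered libraries 0.139, -0.134 and -0.091). With 3 libraries in each group, these correlations cannot exclude it.

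The 10 genes and the lists were chosen with earlier results of these data known. Beside the 10 genes, the text names up to 3 called genes with the largest change in each list (where none passed, the most abundant), the 2 most alike genes, the targeted genes and markers. *Hif1a*, *Arnt*, *Mlxipl*, *Mlxip*, *Gapdh* and *Krt5* and the remaining called glycolytic genes were named after their values were seen. A gene that this rule names is not reported here. Promoters are from RefSeq.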

Additional observations from a re-analysis of the deposited data

How the results depend on the processing

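No called gene of the 10 changed the direction of its fitted log2 fold change under any alternative fit. On the TPM scale, however, the mean of *Pfkp* was in the opposite order, 22 ± 1.43 in YT-FF and 19.4 ± 4.66 in YT-AKO, with overlap. The count of the 10 genes called higher, 6, was 3 with library totals alone (1 lower), 0 with the replicate block, 1 with the block and the length offset, and 0 to 8 with one library left out. Over all genes, 2121 higher and 1515 lower became 1137 and 2828 with library totals alone, where 28.7% of calls were higher against 58.3% in the reported fit, 24 and 9 with the replicate block (5806 at an unadjusted p under 0.05), and 53 and 21 with the block and the length offset. The length offset alone left 722 lower and 69.8% of calls higher, and leaving out libraries gave 0 to 2925 higher and 0 to 2424 lower. For the other genes of the pathway, 27 higher and 4 lower became 16 and 11 with library totals alone, 2 and 0 with the block, 3 and 0 with the block and the length offset, 0 to 39 and 0 to 6 with one library left out, and the lower calls became 7 with DESeq2, 7 without the filter on low counts and 2 with the length offset. *Hk1* turned from -0.04 to 0.35 with the length offset, 0.35 with it and the block, 0.03 without YT-FF 1 and 0.01 without YT-AKO 1, within -0.08 to 0.03 over all fits with a library left out. Log2 ratios moved with the length offset to -0.18 (*Pfkp* to *Pfkl*), 0.29 (*Pfkm* to *Pfkp*) and 0.56 (*Ldhb* to *Ldha*). Family sums moved from TPM to TMM-normalized counts per kilobase from -0.43 to 0.25 (transporters), -0.14 to 0.54 (hexokinases), 0.31 to 0.99 (phosphofructokinases) and 0.51 to 1.19 (lactate dehydrogenases) on the log2 scale. The cause of these shifts was not tested. Exact sign flips over the 3 numbered pairs, a replicate block for the ratios, gave p = 0.25 for *Ldhb* to *Ldha*, the smallest p they allow.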
